A study of Mus musculus with 6 samples.

Results

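The 10 genes Bcl2, Bcl2l1, Mcl1, Bcl2l11, Bax, Bak1, Bid, Bad, Bbc3 and Pmaip1, core members of the BCL2 family of apoptosis regulators, were followed in mock and p140Cap-expressing TuBo cells. They were taken by gene symbol, and each matched 1 of the 21960 genes in the deposited counts. The TuBo line was grown from a breast tumor that arose in a BALB/c mouse with the activated rat neu (ErbB2) oncogene under the MMTV promoter. RNA-Seq was available for 3 libraries of mock cells, whose genotype is labelled wt, and 3 libraries of cells labelled as overexpressing p140Cap. p140Cap cells had received the p140Cap cDNA in the retroviral vector pBabe-puro and were selected with puromycin, and individual expressing clones were then isolated and pooled. The pool therefore descends from selected single cells, and what differs between those clones and the mock culture cannot be told apart from p140Cap itself. The deposited labels speak of Balb-NeuT cell lines in one field and of mice in another, and the samples were read as cultured TuBo cells. Nothing in the labels says that the libraries came from separate cultures, so p-values measure the spread between these libraries, which may be technical.

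Proteins of the BCL2 family control the permeability of the mitochondrial outer membrane. The effectors BAX and BAK open pores through which cytochrome c escapes to form the caspase-activating apoptosome. The inhibitors BCL2, BCL-XL (Bcl2l1) and MCL1 hold the effectors in check, and the BH3-only proteins BIM (Bcl2l11), BID, BAD, PUMA (Bbc3) and NOXA (Pmaip1) relay stress by binding the inhibitors, some also by activating the effectors directly. Much of this control acts on the proteins, through phosphorylation, cleavage and degradation, and is not visible in RNA. Counts per gene also do not separate splice forms such as the long and short products of Bcl2l1, Mcl1 and Bcl2l11.

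Libraries held between 13770385 and 75506562 reads on genes, and every mock library held more reads than any p140Cap library. Srcin1, which encodes p140Cap, was higher in the cells labelled p140Cap by 7.29 on the log2 scale (SE 0.09). The mammary epithelial markers Epcam, Cdh1, Krt8, Krt18 and Erbb2 were abundant in every library, with Krt19 between 1 and 5 reads, and the list of 6 summed to 5245 to 5570 CPM (read counts scaled to a common library size with TMM factors) in mock cells and to 6184 to 6339 CPM in p140Cap cells. Epcam (log2 fold change 0.42), Krt18 (0.24) and Cdh1 (0.11) were called higher in p140Cap cells (edgeR), and Krt8 and Erbb2 were not called. Whether reads of the rat neu oncogene were counted as Erbb2 was not tested. A list of 12 immune, endothelial and stromal markers, of which 3 had enough reads for a test, summed to 10.2 to 10.9 CPM in mock cells and to 12.1 to 14.7 CPM in p140Cap cells. Ptprc, Cd3e, Adgre1, Lyz2 and Col3a1 had 0 reads in all libraries. Of the 3 tested, the collagen gene Col1a1 (means 2.97 and 5.02 CPM, log2 fold change 0.80, SE 0.16) and the endothelial marker Pecam1 (means 0.271 and 0.645 CPM, log2 fold change 1.25, SE 0.42) were called higher in p140Cap cells (edgeR), and Pdgfra was not called. The part of such cells in the results was not tested. In bulk RNA, fewer cells that express a gene cannot be told apart from less of its RNA per cell.

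Among the members, Bcl2l11 rose and Bid fell well beyond the spread between libraries, Bax fell moderately, and the other members differed little or not detectably. Of the 9 members with enough reads for a test, 6 (66.7%) were called at an adjusted p under 0.05 by edgeR's quasi-likelihood test, against 71.1% of the 11800 genes tested, so the share called is near the background. Mcl1, Bax, Bid and Bad were lower in p140Cap cells, 44.4% of the tested members against 35.9% of all genes. Bcl2l11 and Bbc3 were higher, 22.2% of the tested members against 35.2% of all genes. No member reached a change of 1 log2 unit, which 9.97% of all genes did with a call. The median absolute log2 fold change was 0.17 over the 9 members and 0.32 over all genes tested, and the median signed value was -0.11 over the members. CPM values of the groups did not overlap for 7 of the 9 members (77.8%), against 73.4% of all genes. With libraries thinned to the smallest total this held for 5 members, and the share of all genes was not counted there. The smallest p that an exact permutation test on 3 against 3 libraries could give is 0.1.

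**Figure D1:**
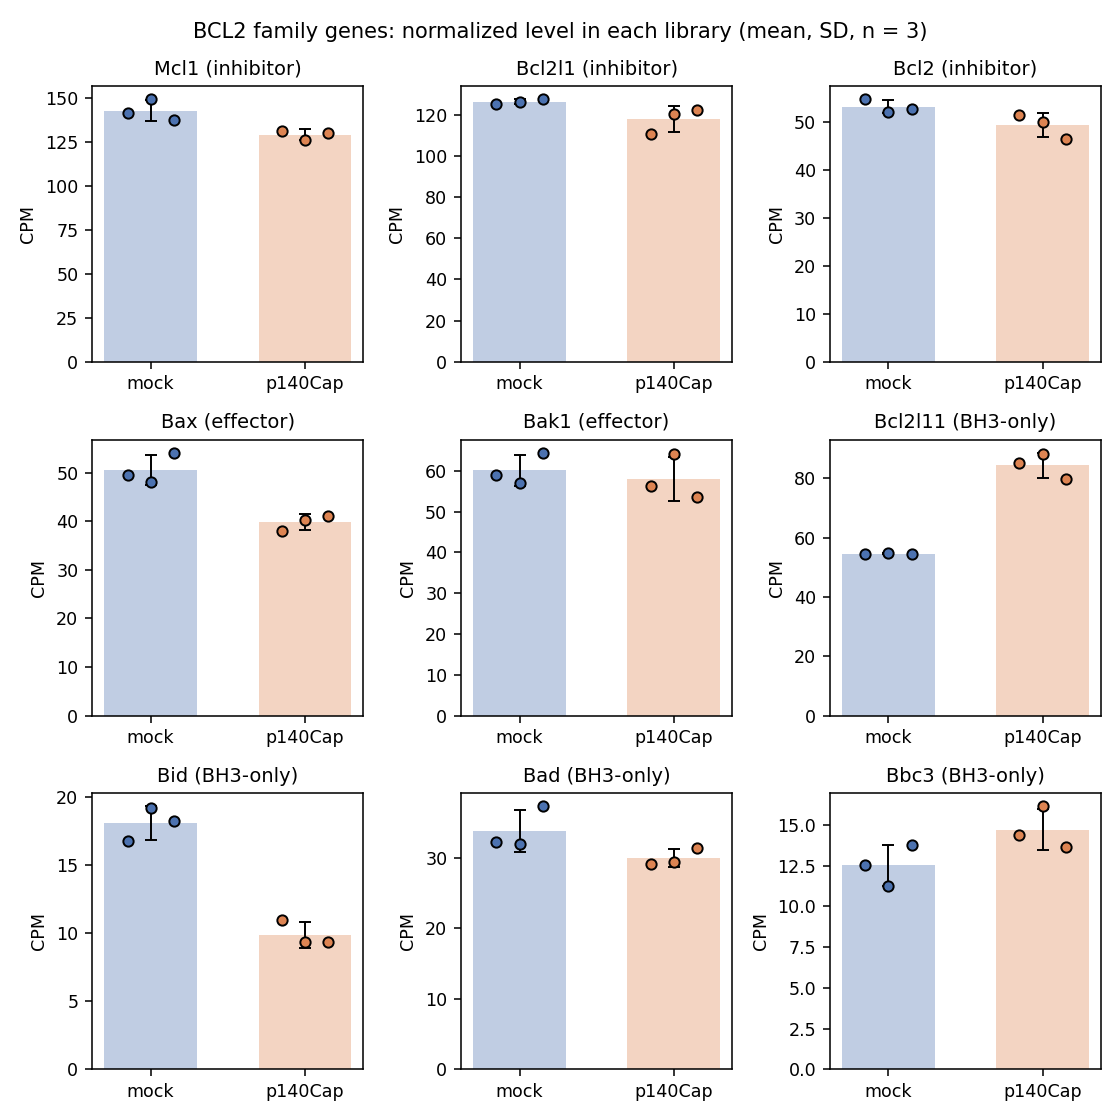
Normalized level (CPM, y axis from 0) of the 9 tested members in each library. Points are libraries, bars are group means and error bars are SD (n = 3). Bcl2l11 lies between 79.7 and 88.1 CPM in p140Cap cells, above all mock libraries, and Bid lies between 9.33 and 10.9 CPM, below them.

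The inhibitors were examined first. Mcl1 (ENSMUSG00000038612; chromosome 3 of GRCm38.p6, 95656944 to 95663179, plus strand), which encodes a short-lived inhibitor of BAK and BIM, was at 141, 149 and 137 CPM in the mock libraries and at 131, 126 and 130.0 CPM in the p140Cap libraries. All p140Cap libraries lay below all mock libraries, with a log2 difference of -0.15 (SE 0.05, adjusted p = 0.0131, edgeR, adjusted by Benjamini-Hochberg over all genes). The call was lost without mock replicate 2 (adjusted p = 0.0637, edgeR). Bcl2l1 (ENSMUSG00000007659; chromosome 2, 152758732 to 152833803, minus strand) was at 125, 126 and 128 CPM in mock cells and at 111, 121 and 123 CPM in p140Cap cells. Its groups did not overlap, but the difference of -0.10 (95% interval -0.20 to 0.004) was not called (adjusted p = 0.0799, edgeR). Bcl2 (ENSMUSG00000057329; chromosome 1, 106538176 to 106714290, minus strand), the founding member of the family, was at 54.8, 52.1 and 52.7 CPM in mock cells and at 51.5, 50.1 and 46.5 CPM in p140Cap cells. Here too the groups were apart by a narrow margin, with a log2 difference of -0.11 (95% interval -0.22 to 0.006) that was not called (adjusted p = 0.0840, edgeR). With total reads in place of TMM scaling, which shifts the median of all genes to -0.04, the differences of Bcl2 (-0.15, adjusted p = 0.0244) and Bcl2l1 (-0.14, adjusted p = 0.0206) were called by edgeR. Leaving out p140Cap replicate 1 brought Bcl2l1 to -0.06 (adjusted p = 0.386, edgeR), and leaving out p140Cap replicate 3 brought Bcl2 to -0.07 (adjusted p = 0.313, edgeR). No interval of the 3 inhibitors reached below -0.25.

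Of the effectors, Bax was called lower and Bak1 was not called. Bax (ENSMUSG00000003873; chromosome 7, 45461695 to 45466903, minus strand) was at 49.6, 48.1 and 54.1 CPM in mock cells and fell to 38.0, 40.3 and 41.1 CPM in p140Cap cells, with no overlap between groups. This is a log2 fold change of -0.34 (SE 0.06; edgeR, adjusted p = 7.92e-05), or 0.788 of the mock level, and it lay between -0.38 and -0.30 over 16 alternative analyses. Tested against a fold of 1.2 instead of against no change, Bax was not called (adjusted p = 0.0724, edgeR's glmTreat). Bak1 (ENSMUSG00000057789; chromosome 17, 27019812 to 27028627, minus strand), whose protein sits constitutively on mitochondria, was at 58.9, 57.0 and 64.5 CPM in mock cells and at 56.4, 64.2 and 53.5 CPM in p140Cap cells. These ranges overlap broadly, the log2 fold change was -0.05 (95% interval -0.19 to 0.09, adjusted p = 0.527, edgeR), and its sign changed without p140Cap replicate 3. Whether the fall of Bax exceeds that of Bak1 was not tested. Within each library, Bax per kb of merged exon stood at 1.09 times Bak1 in all 3 mock libraries and at 0.874, 0.815 and 0.996 times Bak1 in the p140Cap libraries. Which of them is higher depends on the length used, since per kb of canonical transcript Bax stayed above Bak1, at 51.8 against 25.2 CPM per kb in mock cells and 40.8 against 24.3 CPM per kb in p140Cap cells.

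BH3-only genes moved in both directions. Bcl2l11 (ENSMUSG00000027381; chromosome 2, 128126038 to 128162547, plus strand) encodes BIM, which binds all inhibitors and can also activate BAX and BAK. It was at 54.6, 54.7 and 54.4 CPM in mock cells and at 85.1, 88.1 and 79.7 CPM in p140Cap cells. Every p140Cap library was thus far above every mock library, with means of 54.6 ± 0.138 and 84.3 ± 4.28 CPM (SD, n = 3 each). The mock SD is smaller than counting error alone gives for 1812 to 4177 reads, so it is not a measure of stability. On the log2 scale the rise was 0.63 (SE 0.05; edgeR, adjusted p = 1.22e-08), a change to 1.55 times the mock level, and Bcl2l11 stood at position 1107 of 11800 genes ordered by p. All 16 alternative analyses called it, with values between 0.59 and 0.66.

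Bid (ENSMUSG00000004446; chromosome 6, 120893119 to 120917062, minus strand) encodes the BH3-only protein that caspase-8 cleaves, linking death receptors to mitochondria. It was at 16.8, 19.2 and 18.2 CPM in mock cells and at 10.9, 9.33 and 9.33 CPM in p140Cap cells, without overlap. On the log2 scale this was -0.86 (SE 0.09; edgeR, adjusted p = 2.4e-07), or 0.550 of the mock level, the largest change among the members tested, and it lay between -0.95 and -0.82 in all 16 alternatives. With the libraries thinned to 1 common depth it remained called, as did Bcl2l11. Exons of Bid share 3059 bases with exons of Bcl2l13 on the other strand in the GENCODE annotation. The mean of Bcl2l13 was 92.6 CPM in mock and 89.8 CPM in p140Cap libraries (log2 fold change -0.04, 95% interval -0.15 to 0.06, not called). Libraries were stranded, but no source used here says whether strand entered the authors' counting.

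Bad (ENSMUSG00000024959; chromosome 19, 6941861 to 6951905, plus strand), whose protein is inactivated by survival kinases, was at 32.2, 32.0 and 37.3 CPM in mock cells and at 29.1, 29.4 and 31.4 CPM in p140Cap cells. The groups were only just apart, with a log2 fold change of -0.17 (SE 0.07; edgeR, adjusted p = 0.0401). The call was lost in 6 of 16 alternatives, among them DESeq2 (adjusted p = 0.0574), and without mock replicate 3 the value was -0.11 (adjusted p = 0.133), without p140Cap replicate 1 the adjusted p was 0.120 and without p140Cap replicate 2 it was 0.0893 (edgeR). Bad lies on chromosome 19, whose 424 tested genes had a median log2 fold change of -0.34, while the medians of the other chromosomes that carry members lay between 0.00 and 0.06. The part of chromosome 19 in the value of Bad was not tested. Of its 4485 exon bases, 1130 are shared with Gm56656 and 914 with Gpr137, both on the other strand, and Gpr137 was lower as well (-0.30, SE 0.09).

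Bbc3 (ENSMUSG00000002083; chromosome 7, 16308398 to 16318334, plus strand) encodes PUMA, a target of p53 and of FOXO factors. It was at 12.6, 11.3 and 13.8 CPM in mock cells and at 14.4, 16.1 and 13.7 CPM in p140Cap cells, and the groups overlapped. Its log2 fold change of 0.24 (SE 0.09, adjusted p = 0.0296, edgeR) was called here but lost in 8 of 16 alternatives. These included leaving out mock replicate 1 (adjusted p = 0.0658), mock replicate 2 (adjusted p = 0.105) or p140Cap replicate 2 (adjusted p = 0.164), so the call depends on single libraries. Pmaip1 (ENSMUSG00000024521; chromosome 18, 66458604 to 66465558, plus strand), which encodes the p53-inducible MCL1 antagonist NOXA, had 1 read in mock replicate 1 and 0 reads in every other library. It did not pass the filter on low counts. Without that filter its log2 fold change was -1.44 and it was not called (adjusted p = 0.638, edgeR), a value that rests on 1 read. A count of 0 allows up to 3 reads, or 0.198 to 0.220 CPM in single p140Cap libraries, counting error only.

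**Figure D2:**
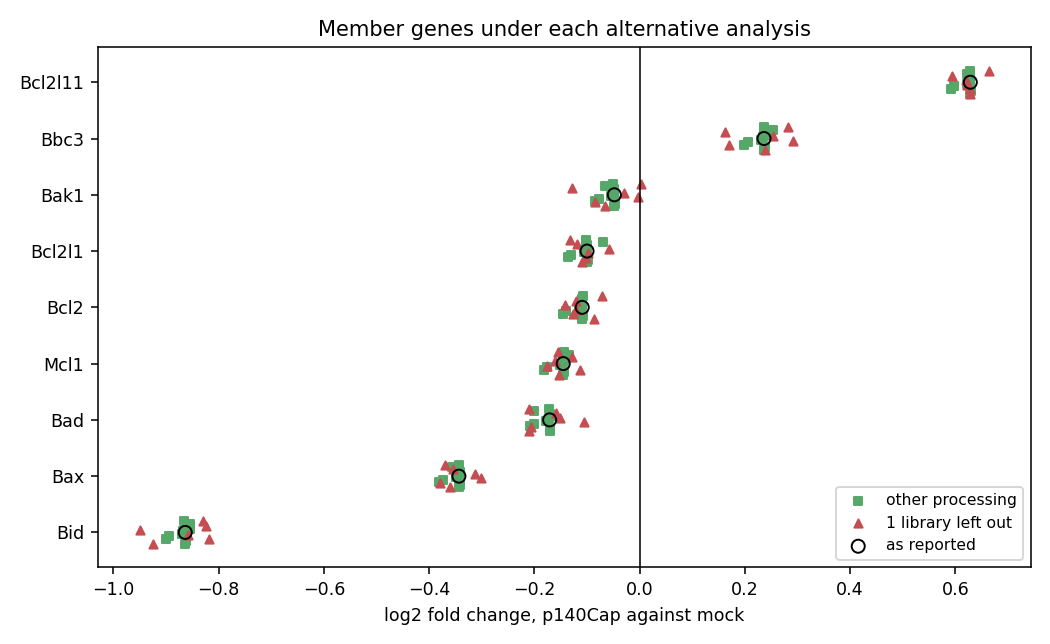
Log2 fold change (x axis) of each tested member as reported (open circles), with 1 library left out (triangles) and under other processing (squares). Bcl2l11 stays between 0.59 and 0.66 and Bid between -0.95 and -0.82, whereas values of Bak1 lie on both sides of 0.

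Promoter sequence was searched for 5 motifs of factors known to act on the family, among them the FOXO factors, which activate Bcl2l11 and Bbc3 in other systems. In the 250 bases before each RefSeq start (GRCm38.p6; 15 windows of the 9 tested members, some of the same gene and overlapping), the FOXO core letters TGTTTAC, read on both strands, occurred in 1 window of Bcl2l11 and 1 of Bbc3. Of all 32851 windows, 3.17% held these letters. Both sites are shown because these are the members called higher, although the call of Bbc3 was lost in 8 of 16 alternatives. The FOXO letters are in capitals, and the gene's own strand is read 5′ to 3′.
Bcl2l11 (chr2:128125800-128125828, plus strand): aagacactaggGTAAACAcgccggggtgg
Bbc3 (chr7:16310083-16310111, plus strand): tctggcgggttTGTTTACaaacaatgggg
The site of Bcl2l11, in which the letters read on the reverse strand, begins 227 bases before the start, within the annotated span of the neighbouring gene Acoxl. That of Bbc3 begins 167 bases before an internal start of the gene. Neither overlapped another motif searched. The E-box letters CACGTG, which read alike on both strands, occurred in 1 window of Bax and 1 of Bbc3 (6.02% of all windows), the GC box GGGCGG in 10 of the 15 windows (32.7% of all), and the E2F letters TTTGGCGC (0.42% of all) and STAT letters TTCNNNGAA (7.02% of all) in no member's window. A match of letters is a description and not a binding site.

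Levels of different genes were compared per kb of merged exon. In mock cells, Mcl1 stood at 40.9 CPM per kb, followed by Bax at 27.3, Bak1 at 25.0, Bcl2l1 at 24.6, Bad at 7.54, Bcl2 at 5.78, Bcl2l11 at 5.40, Bbc3 at 2.62 and Bid at 1.85 CPM per kb. Bak1 and Bcl2l1 lay closer together than the SD between mock libraries, so their order is not settled. Bcl2l11 stood at 0.908 to 0.956 times Bcl2 in the mock libraries and at 1.51 to 1.60 times Bcl2 in the p140Cap libraries. In p140Cap cells, Bcl2l11 was at 8.34 CPM per kb, Bad at 6.68 and Bcl2 at 5.36 CPM per kb. The order of genes depends on the length used. Per kb of the canonical transcript alone, Bcl2l11 stood above Bcl2 already in mock cells, at 10.8 against 7.34 CPM per kb, and stayed below Bad in p140Cap cells, at 16.7 against 25.2 CPM per kb. On that scale Bax led in mock cells with 51.8 CPM per kb, and Bad, at 28.5, stood above Bak1, at 25.2 CPM per kb.

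The level of Bcl2l11 relative to its inhibitors was higher in every p140Cap library than in every mock library. The ratio of Bcl2l11 to Mcl1, both per kb of merged exon, was 0.133, 0.127 and 0.137 in the mock libraries and 0.224, 0.242 and 0.212 in the p140Cap libraries. Relative to Bcl2l1 it was 0.222, 0.220 and 0.216 in mock cells and 0.391, 0.371 and 0.330 in p140Cap cells, without overlap. Bcl2l11 was 2.75 to 3.15 times Bid in mock cells and 7.53 to 9.15 times Bid in p140Cap cells. This gap was smaller per kb of canonical transcript. There Bcl2l11 was at 10.8 against 8.21 CPM per kb for Bid in mock cells, and at 16.7 against 4.48 in p140Cap cells. Summed over the members alone, without wider family genes such as Bcl2l2, Bmf and Bik, the picture was flatter. The sum of the 5 BH3-only genes over the sum of the 3 inhibitors was 0.231 to 0.264 in mock cells and 0.283 to 0.302 in p140Cap cells, but with canonical transcript lengths the ranges were 0.572 to 0.648 and 0.635 to 0.657 and overlapped. Bax and Bak1 together over the inhibitors overlapped between groups, at 0.680 to 0.800 in mock cells and 0.671 to 0.745 in p140Cap cells. Ratios are descriptions with no test.

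The wider BCL2 family was read from a list of 16 further genes, and 11 of them could be tested. In p140Cap cells 6 were called higher and 3 lower (edgeR, threshold 0.05), and 5 of these changed by at least 1 log2 unit. Over all genes tested, 35.2% were higher, 35.9% were lower and 9.97% were called with a change of that size. The BH3-only genes Bmf and Bik and the mitophagy receptor Bnip3 rose most. Bnip3 was at 149, 145 and 149 CPM in mock cells and at 421, 397 and 432 CPM in p140Cap cells, which is 1.50 on the log2 scale (SE 0.05; edgeR, adjusted p = 3.7e-13). Bmf encodes a protein held at the actin cytoskeleton until cells lose attachment. It was at 24.9, 24.4 and 23.9 CPM in mock cells and at 50.4, 54.4 and 53.3 CPM in p140Cap cells. Its log2 fold change of 1.11 (SE 0.06, adjusted p = 4.63e-11, edgeR) exceeded that of Bcl2l11, with which BMF shares the binding of a dynein light chain. Bik was at 3.74, 4.05 and 4.02 CPM in mock cells and at 10.3, 8.38 and 6.90 CPM in p140Cap cells, or 1.13 higher on the log2 scale (SE 0.13; edgeR, adjusted p = 6.82e-07). The values of Bnip3, Bmf and Bik did not overlap between groups, and all 16 alternatives called each of them higher.

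Becn1, which encodes the BH3-domain autophagy protein Beclin, was lower by a small margin (log2 fold change -0.12, SE 0.05, adjusted p = 0.0273, edgeR), and its call was lost without mock replicate 1 (adjusted p = 0.0662), mock replicate 2 (0.0514), p140Cap replicate 2 (0.0815) or p140Cap replicate 3 (0.0501). Its exons share 3227 bases with Cntd1 on the other strand. Bcl2l15 and Bcl2a1d, rare transcripts named after their values were seen, were also lower. Mock replicates 1 to 3 held 91, 66 and 26 reads of Bcl2l15, and p140Cap replicates 5, 2 and 2 (log2 fold change -2.54, SE 0.46, adjusted p = 0.000119, edgeR), and Bcl2a1d, which shares sequence with its paralogs Bcl2a1a and Bcl2a1b so that its reads are uncertain, had 62, 21 and 31 reads against 3, 3 and 1 (log2 fold change -2.21, SE 0.48, adjusted p = 0.00057, edgeR). Bcl2l2, encoding the inhibitor BCL-W, was higher (log2 fold change 0.24, SE 0.05, adjusted p = 0.00073, edgeR), while Bcl2l12 and Bcl2l13 were not called. Bcl2a1a, Bcl2a1b, Bcl2l10, Bok and Hrk had too few reads, and the effector gene Bok had 0 reads in every library. The median log2 fold change over the 11 genes was 0.24, against 0.00 over all genes tested.

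**Figure D3:**
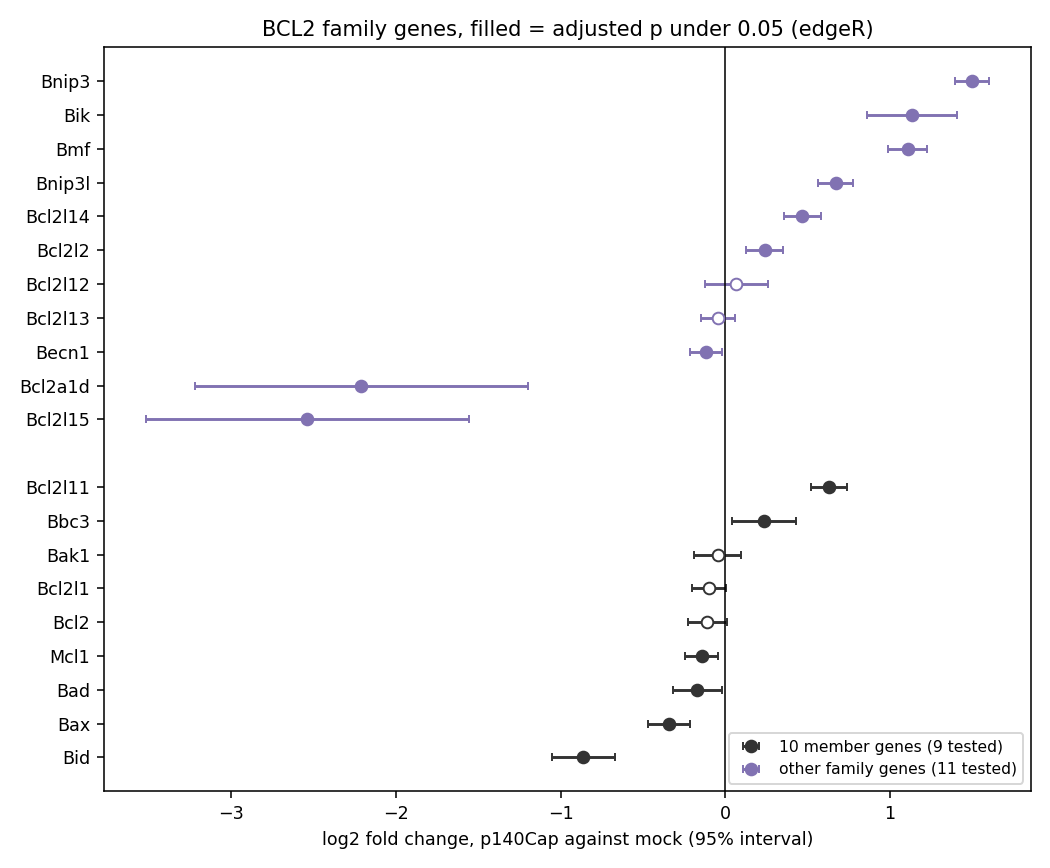
Log2 fold change of p140Cap against mock cells (x axis) with its 95% interval for the 9 tested members and the 11 other family genes with enough reads. Filled points passed an adjusted p of 0.05 (edgeR). Bnip3, Bik and Bmf lie above 1, beyond every member, and the intervals of the rare transcripts Bcl2a1d and Bcl2l15 are the widest.

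Downstream of the mitochondrial pore, a list of 18 apoptosome, caspase and IAP genes had 17 members with enough reads, of which 4 were higher and 6 were lower (edgeR), 10 of 17 called against the background of 71.1%, with a median of -0.07. Birc3 had too few reads. Cycs, which encodes the cytochrome c that BAX and BAK release, fell from 39.6, 42.0 and 42.5 CPM to 20.9, 18.3 and 20.5 CPM (log2 fold change -1.05, SE 0.07, adjusted p = 6.64e-10, edgeR). The mitochondrial flavoprotein gene Aifm1 fell by 0.56 on the log2 scale (SE 0.05) and the IAP gene Birc5, which encodes survivin, by 0.35 (SE 0.06). The initiator and effector caspase genes Casp9 (0.49, SE 0.07) and Casp6 (0.60, SE 0.06) and the apoptosome scaffold gene Apaf1 (0.28, SE 0.06) were higher. The list thus moved in both directions.

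Of 12 death receptor genes, which feed into BID through caspase-8, 11 were tested, 5 were higher and 2 were lower (edgeR; 7 of 11 called, background 71.1%), with a median of 0.11. Fasl had too few reads. Cflar, which encodes the caspase-8 inhibitor FLIP, rose by 0.56 on the log2 scale (SE 0.05) and the TNF receptor gene Tnfrsf1a by 0.35 (SE 0.05), while the adaptor kinase gene Ripk1 fell by 0.48 (SE 0.06). Fas, a rare receptor transcript singled out with its values known, counted 118, 64 and 45 reads in mock cells against 7, 11 and 11 in p140Cap cells, and its log2 fold change of -1.18 (SE 0.26; edgeR, adjusted p = 0.000651) was the largest in the list. It lies on chromosome 19, whose median is given beside Bad. Tnfsf10, encoding the ligand TRAIL, was called higher (0.33, SE 0.13, adjusted p = 0.0272, edgeR), but its groups overlapped and the call was lost without any of mock replicate 2 (adjusted p = 0.0559), mock replicate 3 (0.0668), p140Cap replicate 1 (0.141) or p140Cap replicate 3 (0.115), and with DESeq2 (0.0569). Casp8 itself was not called (0.06, 95% interval -0.08 to 0.19).

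Of 14 genes of transcription factors and regulators known to act on the family, 13 could be tested, and 6 were higher and 7 lower (edgeR), where 71.1% of all genes tested were called. Their median was -0.19, and Trp73 had 0 reads. The FOXO factor genes Foxo3 and Foxo1, activators of Bcl2l11 in other systems, were both higher. Whether they acted on Bcl2l11 here was not tested. Foxo3 was at 89.9, 82.7 and 93.1 CPM in mock cells and at 160.0, 168 and 152 CPM in p140Cap cells (log2 fold change 0.86, SE 0.05, adjusted p = 7.12e-10, edgeR), and Foxo1 rose by 0.61 (SE 0.05; edgeR, adjusted p = 1.49e-08). The stress-induced factor gene Ddit3, whose protein CHOP can also activate Bcl2l11, rose by 0.81 on the log2 scale (SE 0.08). Of its 5579 exon bases, 3576 are shared with exons of Mars1 on the other strand. The part of Mars1 reads in the value of Ddit3 was not tested. Atf4, the gene of a factor upstream of Ddit3, moved the other way (-0.80, SE 0.06). E2f1 fell by 0.75 (SE 0.06) and Myc by 0.73 (SE 0.06), both known to sensitize cells to apoptosis. Trp53, which activates Bax, Bbc3 and Pmaip1, fell by 0.54 (SE 0.05), and its target Mdm2 by 0.19 (SE 0.05).

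Genes of proteins that modify or bind the family formed a list of 26, of which 25 were tested, 8 were higher and 10 were lower (edgeR; 18 of 25 called, background 71.1%), with a median of -0.03. Trim17 had too few reads. Mapk3, which encodes the kinase ERK1 that marks BIM for degradation, rose by 0.78 on the log2 scale (SE 0.05), and the kinase genes Pim1 (0.76, SE 0.06) and Pim2 (0.57, SE 0.08), which inactivate BAD, were also higher. Akt1, a further BAD kinase gene, fell by 0.49 (SE 0.05), and 3340 of its 7829 exon bases are shared with Siva1 on the other strand, which was also lower (-0.28, SE 0.08). March5, whose product is a mitochondrial ubiquitin ligase that controls MCL1 turnover, fell by 0.55 (SE 0.05), and it lies on chromosome 19, as Bad does. Sfn, which encodes a scaffold protein outside the BCL2 family that retains phosphorylated BAD in the cytosol, fell by 0.50 (SE 0.08). The 6 Ywha genes, which encode scaffold proteins related to that of Sfn, were picked with their values known. They ranged between -0.35 and -0.11 and were called lower, as were 35.9% of all genes. Of these, Ywhaz (-0.11) lost its call with thinned libraries (adjusted p = 0.0539, edgeR), and without mock replicate 1 (0.0711), mock replicate 2 (0.108), p140Cap replicate 1 (0.148) or p140Cap replicate 3 (0.0591).

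**Figure D4:**
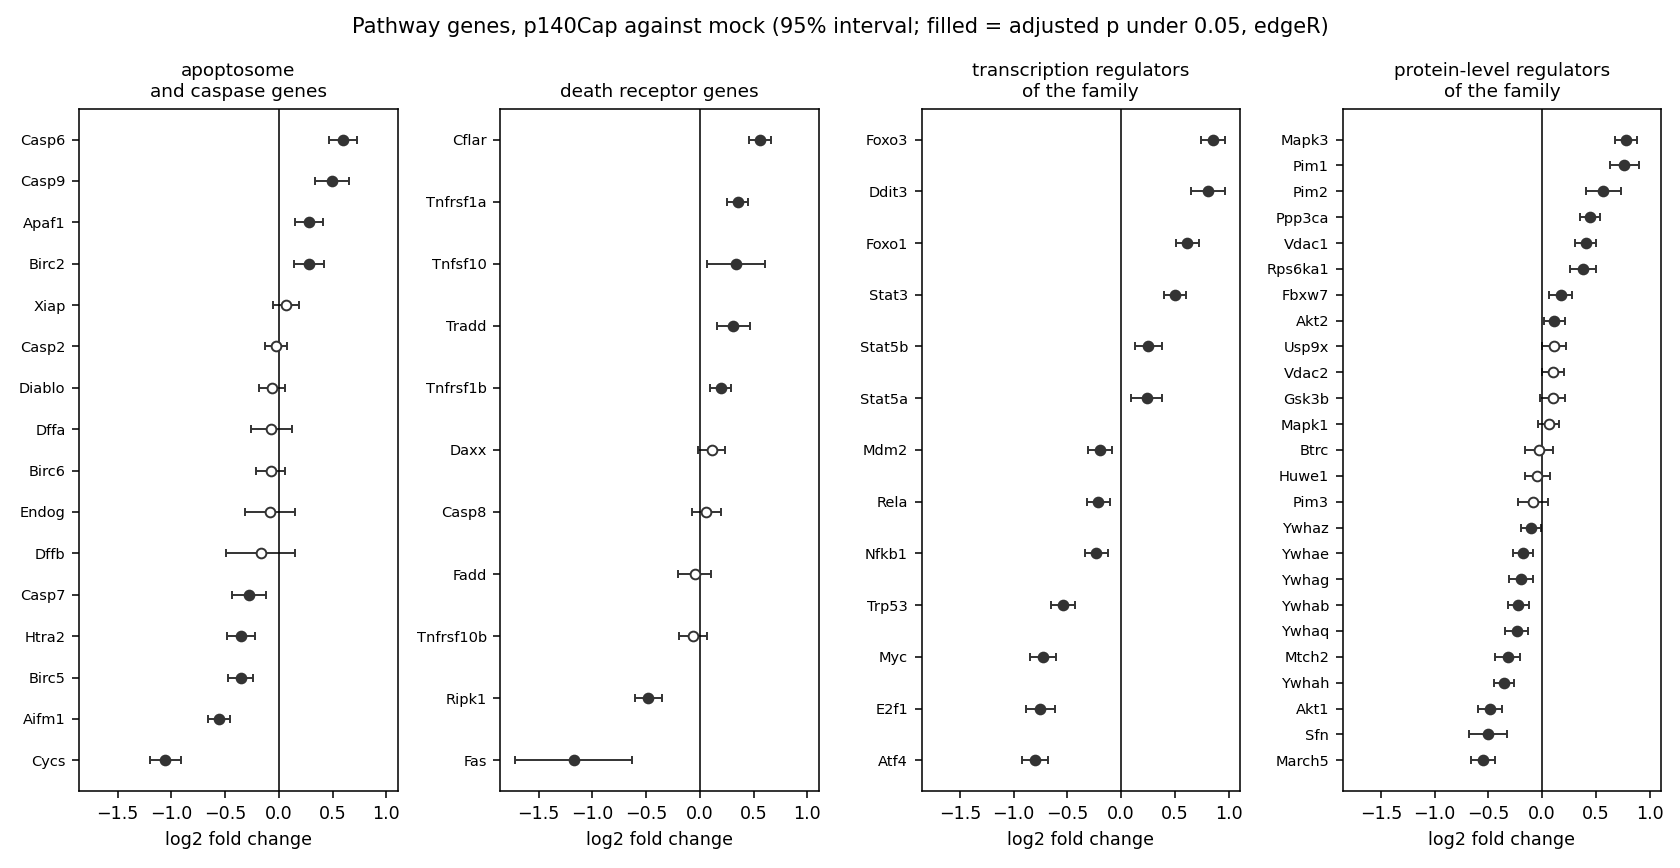
Log2 fold change of p140Cap against mock cells (x axis) with its 95% interval for tested genes of 4 pathway lists. Filled points passed an adjusted p of 0.05 (edgeR). Each list holds genes on both sides of 0, with Cycs at -1.05 and Foxo3 at 0.86.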

How the data were processed

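RNA-Seq counts of 3 mock and 3 p140Cap libraries of TuBo cells were used. As deposited by the authors, the counts are whole numbers of reads for each gene and library, without normalization. Libraries were stranded and sequenced on an Illumina NextSeq (paper), and the submitters' processing notes name STAR 2.5, RSEM 0.1.1 and mm10, without roles. RSEM estimates counts where reads fit several genes. The sources used here give neither the counting settings nor the annotation release.

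Counts were tested in R 4.3.3 with edgeR 4.0.16 (TMM factors, filterByExpr by group, quasi-likelihood test of condition alone, Benjamini-Hochberg adjustment over 11800 genes, threshold 0.05). SE is the size of the log2 fold change over the root of F. CPM uses TMM-adjusted library sizes. Depth limits rare genes, most in p140Cap libraries. The code was tested on simulated counts. No libraries were copies, with mean chi-square values between replicates of 1.75 to 10.7, where sampling noise gives 1. Alternatives used DESeq2 1.42.0, limma 3.58.1, other factors, filters, thinning, a fold threshold, each library left out and a replicate block.

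Positions and promoter windows are RefSeq (GRCm38.p6) by symbol, with strand, exon lengths and overlaps from GENCODE by Ensembl identifier (98.6% of genes matched). Pmaip1 has no promoter entry in the table used. Members and lists were chosen with earlier results of these data known. Named in each list are the 3 called genes that changed most in each direction, where the mean log2 CPM reached 1, and genes with too few reads. Other genes, among them Casp8, Fas, Trp53, Mdm2, Bcl2l2, Bcl2l12, Bcl2l13 and the Ywha genes, were named after their values were seen, and the motifs were chosen after seeing the data. The result of 1 listed gene is not reported here or drawn among the pathway genes, and it is kept in the counts.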

Additional observations from a re-analysis of the deposited data

How the results depend on the processing

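Directions of all tested members were kept under 16 alternatives, except that Bak1, not called in any, was at 0.0018 without p140Cap replicate 3 and lay between -0.13 and 0.0018 with each library left out. Bcl2l11 and Bid were called in all 16. The number of members called higher was 1 instead of 2, through the loss of Bbc3, with total reads only, DESeq2, thinned libraries and the replicate block, and lay between 1 and 2 with each library left out. Against a fold of 1.2 (glmTreat), 2 members were called, 1 higher (Bcl2l11) and 1 lower (Bid), and 4912 of 11800 genes. In that test 5 apoptosome and caspase genes, 4 death receptor genes, 8 transcription regulators and 10 protein-level regulators were called, fewer because small changes are tested against a larger one. Same-numbered libraries did not deviate together (correlations -0.01, -0.25 and -0.05), so the numbers were not read as pairs, and with the replicate block 5 members and 8034 genes were called. Bcl2 and Bcl2l1 passed the threshold with total reads only and with no filter on low counts, which shift the median of all genes to -0.04 and -0.06. Few reads in the p140Cap libraries limit the precision for Bcl2a1d and Bcl2l15.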
